A study of Mus musculus with 18 samples.

Results

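Heme breakdown and iron handling was followed through 10 genes in sorted mouse myeloid cells. The genes were found by symbol, ignoring case, in a table of normalised reads that holds 16177 genes, and each of the 10 had a row. Cd163 had 2 rows, of which the one with the higher mean was used. The cells came from C57BL/6 mice, with no treatment named in the labels, and made up 9 populations of 2 libraries each, 18 libraries in all. Experiment 2 held spleen red pulp macrophages, Kupffer cells (the macrophages of the liver), lung macrophages, bone marrow monocytes and bone marrow neutrophils. Experiment 1 held peritoneal macrophages, macrophages of the small intestine (ileum), macrophages of the large intestine (colon) and microglia (the macrophages of the brain). No population was made in both, so across experiments the effect of the experiment and that of the population cannot be told apart. The labels give no sorting gate and do not say that replicates are separate animals, so each p measures the spread between libraries, which may be technical. The question was how expression of these genes differs among macrophages of different tissues and between them and other myeloid cells.

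Macrophages of the spleen and liver take up aged red blood cells and recycle their iron. Free hemoglobin bound to haptoglobin enters through the receptor CD163, and free heme is carried by hemopexin (Hpx). Heme oxygenase 1 (Hmox1) opens the heme ring and releases iron, carbon monoxide and biliverdin. Biliverdin reductase A (Blvra) reduces this biliverdin to bilirubin, and Blvrb encodes biliverdin reductase B, also known as flavin reductase. Iron leaves the phagosome through NRAMP1 (Slc11a1), is stored in ferritin, whose heavy chain is Fth1, and leaves the cell through ferroportin (Slc40a1), while the transferrin receptor (Tfrc) brings iron in. Nfe2l2 encodes NRF2, a transcription factor that induces Hmox1 and other genes with antioxidant response elements. These statements are background and were not measured here.

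Fth1 and Tfrc are known for iron-responsive elements, hairpins in the untranslated ends of their messengers to which the iron regulatory proteins bind. Their sequences are shown because through them iron sets the translation of Fth1 and the stability of the Tfrc messenger, and only messenger RNA was measured. In GENCODE M21 transcripts (GRCm38) the loop letters CAGTGN with a C 6 bases before them, the bulge of the element, were found at 1 place in the 5′ untranslated region of Fth1, at base 93 of 224, and at 5 places in the 3′ untranslated region of Tfrc, at bases 892, 1271, 1318, 1336 and 1383 of 2461. The letters alone are common, being held by 10.8% of the 5′ regions of 20873 genes and by 34.4% of the 3′ regions of 21669 genes. The 5 bases on either side of the loop could all pair, counting G with U, in Fth1 and at 4 of the Tfrc places, while 2 of 5 could pair at the Tfrc place at base 1318. Capitals mark the loop from its C to the base after CAGTG, and the 30 bases are written as DNA.
Fth1 5′ element: ggtttcctgcttcaaCAGTGCttgaacgga
Tfrc 3′ element at 892: gataattatcggaagCAGTGCcttccataa
Tfrc 3′ element at 1271: tcacattatcgggagCAGTGTcttccataa
Tfrc 3′ element at 1336: tgtctatatcggagaCAGTGAtctccatat
Tfrc 3′ element at 1383: cgtaattatcgggaaCAGTGTttcccataa
The Fth1 values below are of messenger RNA, and the amount of ferritin protein was not measured.

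Promoters of 8 of the 10 genes, Hmox1 and Slc40a1 apart, were in a RefSeq table (GRCm38.p6), and the 250 bases before each start were searched on both strands for the antioxidant response element TGACNNNGC and the ETS box GAGGAA. An antioxidant response element stood in the windows of Hpx, Blvra and Nfe2l2, and 10.2% of the 32851 windows in the table hold one. An ETS box stood in the window of Slc11a1, as in 23.2% of windows. A match is a description of letters and does not show binding. The windows of Hpx, Blvra, Nfe2l2 and Slc11a1 are shown because they are those that hold a match. Capitals mark the matched letters, which begin 95 bases before the start in Hpx and 49 before it in Blvra (both on the minus strand of the window), 240 before it in Nfe2l2 and 152 before it in Slc11a1.
Hpx promoter, chr7:105600117-105600366, minus strand: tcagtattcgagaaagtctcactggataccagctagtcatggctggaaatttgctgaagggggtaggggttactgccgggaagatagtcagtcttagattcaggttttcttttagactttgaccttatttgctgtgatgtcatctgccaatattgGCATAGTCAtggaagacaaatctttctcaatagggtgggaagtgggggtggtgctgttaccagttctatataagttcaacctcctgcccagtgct
Blvra promoter, chr2:127070407-127070656, plus strand: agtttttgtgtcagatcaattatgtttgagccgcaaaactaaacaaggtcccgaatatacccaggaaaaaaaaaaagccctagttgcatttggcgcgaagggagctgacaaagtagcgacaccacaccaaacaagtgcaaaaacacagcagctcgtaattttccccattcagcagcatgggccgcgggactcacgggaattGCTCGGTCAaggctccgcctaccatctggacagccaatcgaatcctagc
Nfe2l2 promoter, chr2:75704664-75704913, minus strand: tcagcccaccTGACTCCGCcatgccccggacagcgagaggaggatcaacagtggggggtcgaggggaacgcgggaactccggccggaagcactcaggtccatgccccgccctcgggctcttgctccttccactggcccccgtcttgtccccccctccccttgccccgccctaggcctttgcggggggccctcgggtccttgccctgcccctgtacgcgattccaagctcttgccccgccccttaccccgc
Slc11a1 promoter, chr1:74374953-74375202, plus strand: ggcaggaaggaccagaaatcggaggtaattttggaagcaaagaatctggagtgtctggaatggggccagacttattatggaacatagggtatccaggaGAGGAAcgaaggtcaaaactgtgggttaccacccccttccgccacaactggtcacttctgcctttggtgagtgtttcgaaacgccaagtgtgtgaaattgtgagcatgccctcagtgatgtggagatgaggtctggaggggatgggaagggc

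Libraries held 588120 to 1580381 reads in genes, and no read in a library allows up to 3 reads, which is 1.69 to 6.59 normalised reads. These limits cover counting error only. Marker lists of microglia and of peritoneal, spleen and Kupffer macrophages were highest in the population of that name. The lung macrophage list summed to 11148 and 13381 in lung macrophages but also to 12320.4 and 11859 in neutrophils. Against the other populations of the experiment, by the thresholds given below, 9 of its 9 genes rose in lung. In neutrophils 1 rose and 4 fell. The intestinal list was highest in microglia (7342 and 8717, against 1398 to 2418 over the 4 intestinal libraries), with its largest gene, Cx3cr1, also a microglial marker, and Il22ra2 of that list was at 0 in small intestine macrophages. Some libraries also held messengers of other cells. The endothelial list of 8 genes had its highest sum in neutrophils (1148 and 1154), with 510 and 1009 in Kupffer cells and 598 and 752 in spleen. In neutrophils, however, 2 of its genes rose and 6 fell, so that few genes set this sum. In Kupffer cells 6 rose and 0 fell, and in spleen 2 rose and 2 fell. The hepatocyte list of 15 genes summed to 3425 and 589.9 in Kupffer libraries 1 and 2, against 2.52 to 206 in the 16 others. The erythroid list of 14 genes was highest in neutrophil replicate 1 (56139, with 16908 in the other library) and in spleen (46951 and 34708), followed by Kupffer cells (26046 and 12923) and monocytes (13062 and 19142), and lay between 38.2 and 12896 elsewhere. As a share of all normalised reads of a library, whose total is largest in neutrophils, it was highest in spleen (5.55% and 4.04%), with 3.68% and 1.07% in neutrophils. The lung epithelium list of 8 genes summed to 1119 and 1161 in lung, against at most 92.0 elsewhere. The gut epithelium list of 10 genes summed to 1774 and 840 in small intestine and 2303 and 2272 in large intestine, against at most 155 elsewhere. The monocyte list of 8 genes summed to 16761 and 16145 in neutrophils and 4760 and 8211 in lung, against 5407 and 5464 in monocytes. Of its genes 1 rose and 3 fell in lung, 4 rose and 0 fell in neutrophils, and 7 rose in monocytes. Chil3 is on both this list and that of lung macrophages. The part of such messengers in the values below was not tested.

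Expression of these genes differed among the 9 populations. Hpx reached the filter on low values (5.55 normalised reads in at least 2 libraries) only through its 2 Kupffer libraries, so that it had to differ; its values are given as a description and it is left out of the counts that follow unless named. Genes were called at an adjusted p under 0.05 (limma, Benjamini-Hochberg over 11963 tested genes) and a log2 difference of at least 1. By limma's F test 9 of the 9 other members were called, where 66.9% of all tested genes were, with adjusted p between 5.13e-10 for Slc11a1 and 0.0255 for Tfrc. The call of Tfrc was lost in 7 alternatives, among them those without a spleen library, a lung library, peritoneal replicate 1 or neutrophil replicate 1 (adjusted p = 0.0502 to 0.0699). In mean level, Hmox1 spanned 107-fold from the lowest to the highest population and Slc11a1 67.4-fold, while Fth1 spanned 8.93-fold. For Slc40a1, Cd163, Hpx and Tfrc the lowest mean lay under the limit of 3 reads, and no span is given. For each gene the populations of an experiment were compared in turn with the average of the other populations of that experiment on the log2 scale, after adding 1.11 normalised reads, which understates the change of low genes. Of the differences between 2 populations of 1 experiment, 76 of 144 member tests were called, where 20.1% of tests over all genes were.

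**Figure D1:**
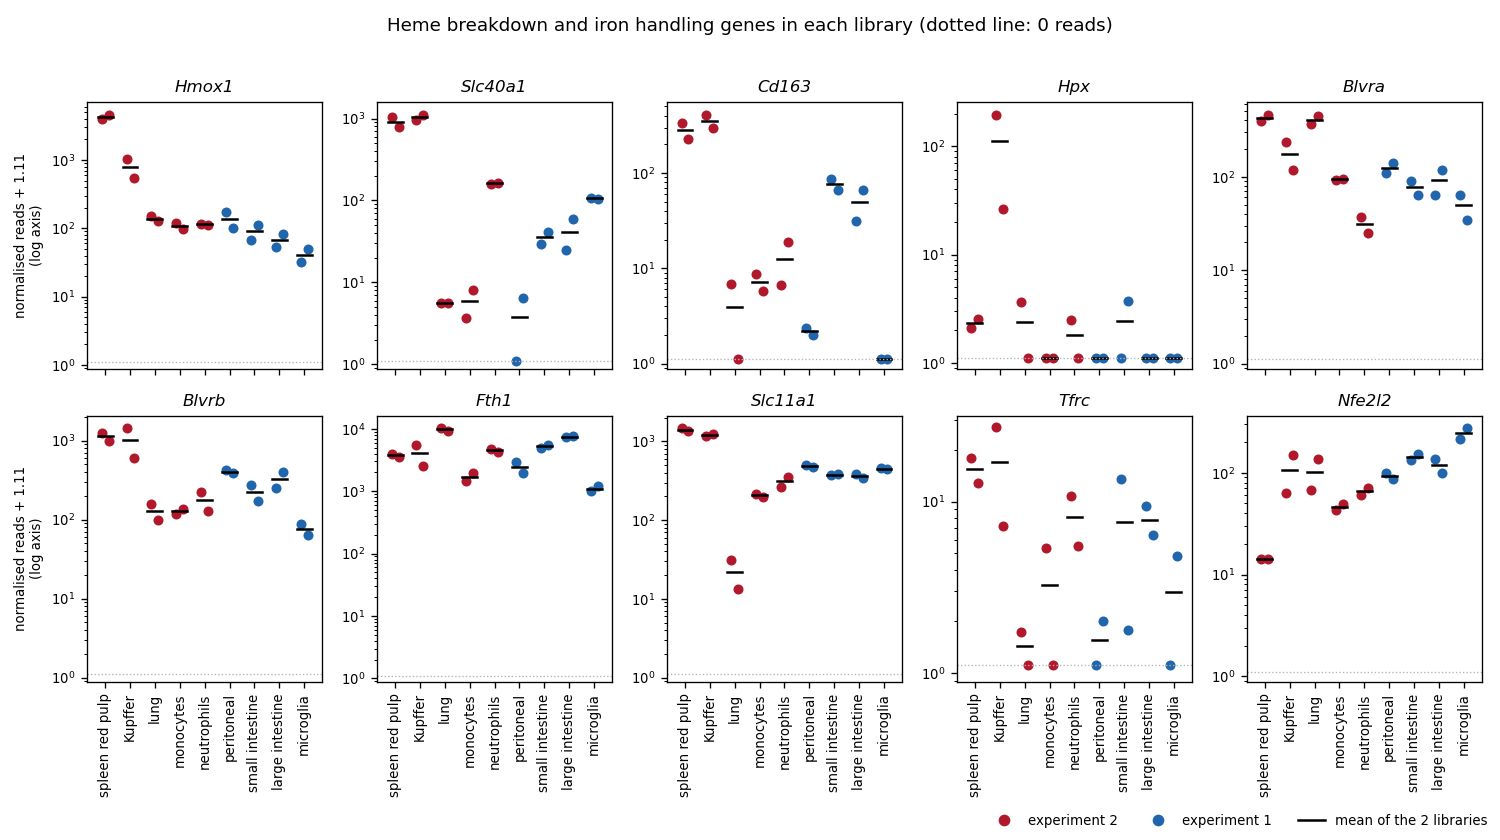
Normalised reads plus 1.11 (log axis) of the 10 genes in each of the 18 libraries, by population; points are libraries, bars are means of 2, red is experiment 2 and blue experiment 1. Hmox1, Slc40a1, Cd163, Blvrb and Slc11a1 are highest in spleen red pulp and Kupffer macrophages, whereas Nfe2l2 is lowest in spleen and Fth1 is highest in lung.

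Cd163, the receptor for hemoglobin bound to haptoglobin, had 409.6 and 297 normalised reads in Kupffer cells and 338 and 228 in spleen macrophages. In experiment 2 lung macrophages had 5.69 and 0, monocytes had 7.67 and 4.60, and neutrophils had 5.51 and 17.6. Neither recycling population overlapped any of these 3. In experiment 1 small intestine macrophages had 85.4 and 65.0, large intestine ones had 30.7 and 66.0, peritoneal ones had 1.26 and 0.903, and both microglia libraries were at 0. The intestinal libraries thus stood above all peritoneal and microglial ones. Cd163 rose in Kupffer cells by a log2 fold change of 4.48 ± 0.57 (SE) with an adjusted p of 1.83e-05, in spleen by 4.07 ± 0.57 (6.03e-05), in small intestine by 3.97 ± 0.59 (2.52e-04) and in large intestine by 3.02 ± 0.59 (2.12e-03). It fell by 4.26 ± 0.57 in lung (2.52e-05), fell by 2.55 ± 0.57 in monocytes (4.39e-03), fell by 1.74 ± 0.57 in neutrophils (0.0225) and fell by 2.85 ± 0.59 in peritoneal macrophages (1.66e-03). In microglia it was listed at 0 and lay at least 14.7-fold under the mean of the other populations of its experiment, taking 3 reads per library as the floor. The call in large intestine ended without its replicate 3 (adjusted p = 0.0988), that in monocytes without replicate 2 (0.111) and that in neutrophils without replicate 1 (0.333).

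Hpx, the plasma carrier of free heme, was seen in Kupffer cells, with 195 normalised reads in replicate 1 and 25.2 in replicate 2. In the 16 other libraries it ranged from 0 to 2.65, and 11 of the 18 libraries had no read. The fitted log2 difference of Kupffer cells was 5.39 ± 0.67, given without a test, and it depends on the number added to low levels: over the alternatives it lay between 3.65 and 6.84. Without Kupffer replicate 1 it was 3.94. The replicate with 7.75 times as much Hpx also held more hepatocyte messengers: Alb, the plasma albumin made by hepatocytes, had 1109 normalised reads in replicate 1 and 168 in replicate 2. The part of hepatocyte RNA in the Hpx value was not tested. The 3 genes whose means over the 9 populations were most like Hpx were Serpina1e (Pearson r = 0.98), Apoh (0.98) and Serpina1d (0.97), among 5662 candidate genes. They too were highest in Kupffer cells, and Apoh is on the hepatocyte list. With Hpx near 0 elsewhere, the Kupffer means set these r values, so any gene seen in Kupffer cells alone would rank high. In monocytes Hpx was at 0 in both libraries, at least 11.1-fold under the mean of the other 4 populations, a mean set by Kupffer cells.

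**Figure D2:**
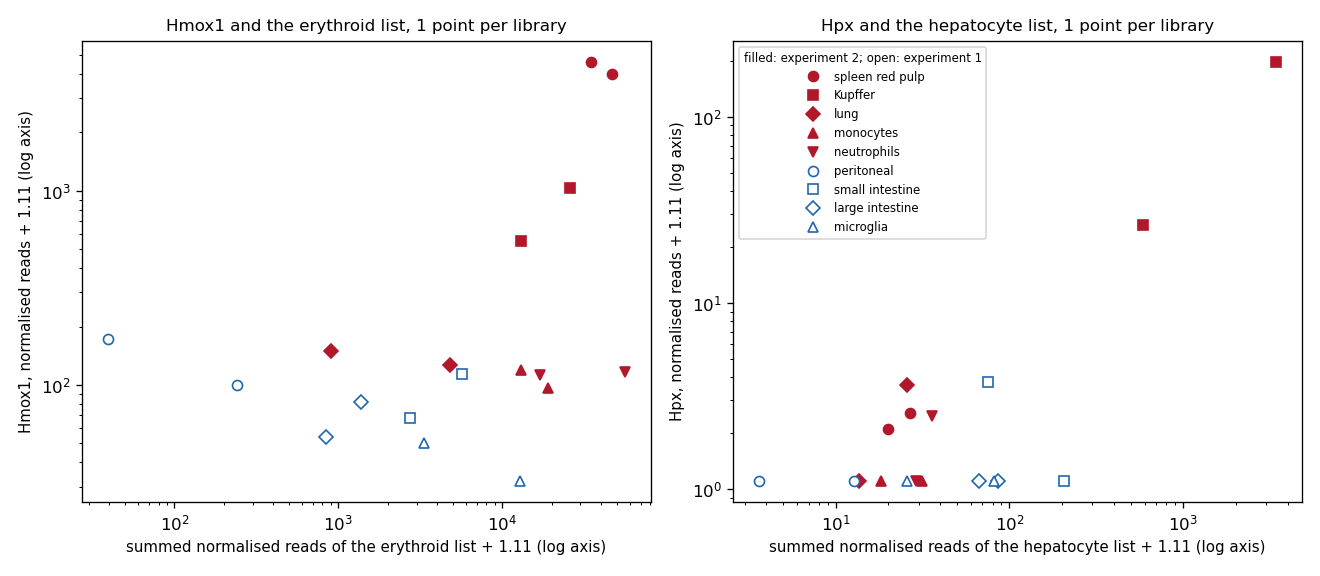
Left, Hmox1 against the summed erythroid list; right, Hpx against the summed hepatocyte list, both in normalised reads plus 1.11 on log axes, 1 point per library. Hpx is high in the 2 libraries with the highest hepatocyte sums, both Kupffer. The erythroid sum is highest in neutrophil replicate 1 (56139, or 3.68% of its reads), with 116 normalised reads of Hmox1. In spleen it is 5.55% and 4.04% of reads, with 3999.6 and 4594 of Hmox1. In Kupffer replicates 1 and 2 it is 26046 and 12923, with 1033 and 551 of Hmox1. The part of erythroid messengers was not tested.

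Hmox1 was highest in spleen red pulp macrophages, with 3999.6 and 4594 normalised reads (4297 ± 420.5, SD, n = 2), followed by Kupffer cells with 1033 and 551. The other populations of experiment 2 lay close together, with 148 and 126 in lung, 118 and 95.1 in monocytes and 116 and 112 in neutrophils. Both spleen libraries stood above both Kupffer libraries, and these above all others. In experiment 1 Hmox1 had 171 and 99.3 in peritoneal macrophages, 66.8 and 113 in small intestine, 53.1 and 80.8 in large intestine and 31.0 and 49.1 in microglia, and only the microglial libraries did not overlap the rest. Libraries pool many cells, so more cells with a messenger and more messenger per cell cannot be told apart, here and for every gene that follows.

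Hmox1 rose in spleen by 4.50 ± 0.29 on the log2 scale (adjusted p = 8.61e-09), under every alternative. It rose in Kupffer cells by 1.37 ± 0.29 (2.03e-03) against an average that includes spleen, monocytes and neutrophils; against spleen and lung macrophages alone the difference was -0.02 (adjusted p = 0.987), and without Kupffer replicate 1 it was 0.92 (0.0859). It fell by 1.70 ± 0.29 in lung, fell by 2.15 ± 0.29 in monocytes and fell by 2.02 ± 0.29 in neutrophils, with spleen part of each average; monocytes and neutrophils differed by -0.10 ± 0.36. Within experiment 1 it fell in microglia by 1.19 ± 0.30 (5.57e-03) and rose in peritoneal macrophages by 1.09 ± 0.30 (0.0116). The microglial call ended without microglia replicate 1 (log2 -0.87, adjusted p = 0.134). The peritoneal call ended without peritoneal replicate 1 (0.70, 0.248), and fell under a log2 of 1 without microglia replicate 1 (0.98), small intestine replicate 3 (0.97) or large intestine replicate 2 (0.99). Erythroid messengers stood beside these values, with 5.55% and 4.04% of reads in spleen and 3.68% and 1.07% in neutrophils. They made up 2.7% and 1.73% in Kupffer replicates 1 and 2 and 1.61% and 2.25% in monocytes. Their part was not tested. Myo10, an unconventional myosin, had the pattern most like Hmox1 (r = 0.95), with Pabpn1 and Vcp next (0.94 each).

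Blvra, which reduces the biliverdin made by heme oxygenase, was highest in spleen and lung macrophages. It had 396 and 460.2 normalised reads in spleen and 362 and 449 in lung, against 234 and 116 in Kupffer cells, 90.4 and 94.4 in monocytes and 35.8 and 24.2 in neutrophils. The libraries of spleen and lung stood above all others. It rose in spleen by 1.86 ± 0.31 (adjusted p = 3.13e-04) and in lung by 1.76 ± 0.31 (4.23e-04) and fell in neutrophils by 2.90 ± 0.31 (6.88e-07). Against the other 2 macrophage populations of the experiment only, the differences in spleen and lung were 0.72 and 0.60 and were not called (adjusted p = 0.199 and 0.251). In experiment 1 Blvra ranged from 33.4 to 139.9 over the 8 libraries, with both peritoneal libraries (108 and 139.9) above both microglial ones (63.0 and 33.4), and was called in no population. Mink1, a kinase, was the gene most like it (r = 0.97).

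Blvrb, the second reductase, also known as flavin reductase and abundant in red blood cells, followed the recycling populations. It had 1259.8 and 992 normalised reads in spleen and 1445 and 607 in Kupffer cells, against 155 and 98.5 in lung, 116 and 135 in monocytes and 223 and 127 in neutrophils. In experiment 1 it had 417 and 390.0 in peritoneal macrophages, 274 and 169 in small intestine, 249.9 and 398 in large intestine and 86.4 and 63.0 in microglia, whose libraries were lowest of all 18. Blvrb rose in spleen by 2.32 ± 0.31 (adjusted p = 3.35e-05), in Kupffer cells by 2.00 ± 0.31 (1.28e-04) and in peritoneal macrophages by 1.23 ± 0.32 (8.91e-03). It fell in microglia by 2.01 ± 0.32 (1.20e-04), in lung by 1.64 ± 0.31 (8.35e-04), in monocytes by 1.61 ± 0.31 (1.31e-03) and in neutrophils by 1.08 ± 0.31 (0.0102). The peritoneal call ended without either of its libraries (adjusted p = 0.0926 and 0.0611), the lung call without lung replicate 2 (0.0653), and the neutrophil call without neutrophil replicate 3 (0.263). Leaving out Kupffer replicate 1 or lung replicate 1 brought the neutrophil difference to -0.92 and -0.997, less than a log2 of 1 in size. Erythroid messengers were again high in spleen and in neutrophil replicate 1, where Blvrb was 223. In Kupffer replicates 1 and 2, where Blvrb was 1445 and 607, they made up 2.7% and 1.73% of reads. Their part was not tested. Igf1, a growth factor gene, was most like Blvrb (r = 0.94), followed by Fcna, a ficolin (0.93).

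Slc40a1, the one known iron exporter of mammalian cells, marked both recycling populations. It had 962 and 1112 normalised reads in Kupffer cells and 1037 and 793 in spleen, then 158 and 163 in neutrophils, 4.42 and 4.43 in lung and 2.56 and 6.90 in monocytes. In experiment 1 it had 107 and 102 in microglia, 28.1 and 40.5 in small intestine, 23.6 and 57.6 in large intestine and 0 and 5.42 in peritoneal macrophages. Lung, monocyte and peritoneal libraries thus lay near the detection limit, while neutrophils and microglia held a middle place. It rose in Kupffer cells by 4.50 ± 0.48 (adjusted p = 1.94e-06), in spleen by 4.26 ± 0.48 (4.23e-06) and in microglia by 2.79 ± 0.49 (3.32e-04). It fell in lung by 4.94 ± 0.48 (5.37e-07), in monocytes by 4.97 ± 0.48 (1.09e-06) and in peritoneal macrophages by 4.27 ± 0.49 (3.27e-06). All 6 calls held under every alternative. In the order of levels the step between spleen and neutrophils was called (2.49 ± 0.60, adjusted p = 3.25e-03), and bone marrow neutrophils exceeded bone marrow monocytes: monocytes minus neutrophils was -4.90 ± 0.60 (8.67e-06). Usp21 (r = 0.92), a deubiquitinase, and Ezh1 (0.91), a histone methyltransferase, were most like it.

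Fth1, the ferritin heavy chain, was highest in lung macrophages. It had 10352 and 9258 normalised reads in lung macrophages, 1.13% of all normalised reads of those libraries on average, against 3949 and 3587 for spleen, 5589 and 2522 for Kupffer cells, 1434 and 1939 for monocytes and 4792 and 4211 for neutrophils. In experiment 1 it had 7366 and 7637 in large intestine, 4886 and 5588 in small intestine, 2928 and 1927 in peritoneal macrophages and 1001 and 1195 in microglia (0.131% of reads). Lung stood above all other libraries and microglia below them. Fth1 rose in lung by 1.61 ± 0.26 (adjusted p = 1.77e-04) and in large intestine by 1.65 ± 0.27 (3.88e-04). It fell in microglia by 2.05 ± 0.27 (1.37e-05) and in monocytes by 1.58 ± 0.26 (3.22e-04). With quantile normalization the large intestine difference was 0.99, under the fold threshold. No neighbours in its order of 9 levels were told apart by the pair tests. Fth1 has processed copies in the genome, and nothing here tells how the authors divided reads among such copies, so its levels are uncertain to that extent. Its likest genes were Abr, a regulator of small GTPases (r = 0.93), and Lmna, which encodes nuclear lamins (0.92).

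Slc11a1, an iron and manganese transporter of the phagosome membrane, was high in spleen (1485 and 1339.7) and Kupffer cells (1168 and 1243) and low in lung macrophages (29.7 and 12.2), with 217 and 194 in monocytes and 263 and 356 in neutrophils. The 8 libraries of experiment 1 lay between 340.3 (large intestine) and 505 (peritoneal), and no population there was called. Both lung libraries were under every other library by a wide step, the monocyte mean being above lung by 3.35 ± 0.30 on the log2 scale (adjusted p = 4.25e-07). It rose in spleen by 2.83 ± 0.24 (1.77e-07) and in Kupffer cells by 2.55 ± 0.24 (5.55e-07), and it fell in lung by 4.82 ± 0.24 (1.51e-10), all under every alternative. Fyb, an adaptor protein of leukocytes (r = 0.96), Lrrc25 (0.93) and the lysosomal enzyme gene Sgsh (0.92) had the patterns most like it, each lowest in lung.

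Tfrc, which imports iron bound to transferrin, was low throughout. Its highest libraries had 26.0 (Kupffer replicate 1, with 6.06 in replicate 2) and 16.9 (spleen, with 11.7 in the other library), and 4 libraries had no read. Small intestine libraries had 12.4 and 0.664, neutrophils 9.65 and 4.40, large intestine 8.25 and 5.23, and lung 0.632 and 0. Only 7 of the 18 libraries reached 5.55 normalised reads, the level used as the filter. Against the average of its experiment the one population called was lung, where Tfrc fell by 2.51 ± 0.81 (adjusted p = 0.0343), and it ended in 9 alternatives, among them those without lung replicate 1 (0.0991), lung replicate 2 (0.294), spleen replicate 1 (0.0577), Kupffer replicate 1 (0.0535), monocyte replicate 1 (0.0667) or neutrophil replicate 1 (0.0623). Of the pairs within an experiment, spleen minus lung (3.45 ± 1.02, adjusted p = 0.0238) and Kupffer minus lung (3.33 ± 1.02, 0.0315) were called, and both calls ended without either lung library. The call of spleen minus lung also ended without either spleen library, and that of Kupffer minus lung without Kupffer replicate 1 (adjusted p = 0.0579 to 0.212 over these). Across experiments peritoneal macrophages were lower than spleen (-3.35 ± 1.02, 0.0216) and Kupffer cells (-3.22 ± 1.02, 0.0335). Red blood cell precursors depend on Tfrc, and the erythroid sums of spleen, neutrophils, Kupffer cells and monocytes given above stand beside these values. Their part was not tested.

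Nfe2l2 was low where its target Hmox1 was high in spleen, but not in the liver. Spleen macrophages had 12.96 and 13.1 normalised reads, against 62.4 and 147 in Kupffer cells, 66.4 and 135 in lung, 41.8 and 48.3 in monocytes and 59.3 and 70.3 in neutrophils. In experiment 1 it had 214 and 275 in microglia, 133 and 153 in small intestine, 136 and 97.7 in large intestine and 98.3 and 84.9 in peritoneal macrophages. Both spleen libraries were below all 16 others and both microglial libraries above them. Nfe2l2 fell in spleen by 2.36 ± 0.31 (adjusted p = 2.75e-05) under every alternative, and the step to the next population in its order, monocytes minus spleen, was 1.70 ± 0.39 (4.13e-03). It rose in microglia by 1.08 ± 0.32 (0.0164), in Kupffer cells by 1.11 ± 0.31 (0.0166) and in lung by 1.09 ± 0.31 (0.0174). These 3 calls were close to the fold threshold: the microglial one ended without microglia replicate 1 (adjusted p = 0.0562) or 2 (0.174), the Kupffer one without Kupffer replicate 2 (0.421), and the lung one without lung replicate 2 (0.432). The Kupffer difference was also 0.98 without lung replicate 1 and 1.72 without Kupffer replicate 1, and the lung difference was 0.93 without Kupffer replicate 1. The 2 Kupffer libraries went in opposite directions here, replicate 2 having 2.36 times the Nfe2l2 of replicate 1 and replicate 1 having 1.88 times the Hmox1 of replicate 2. Over the 9 population means, Hmox1 and Nfe2l2 had a Pearson r of -0.80, given as a description of populations that share experiments. Wtap, part of the RNA methylation complex, was the gene most like Nfe2l2 (r = 0.91).

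**Figure D3:**
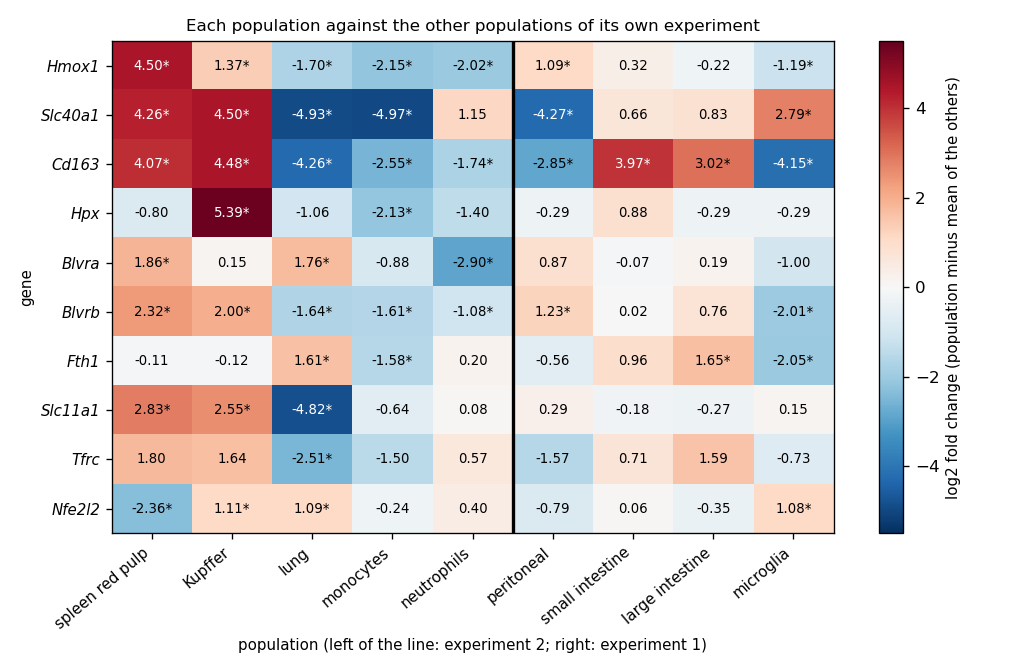
Log2 fold change of each gene in each population minus the average of the other populations of its own experiment; an asterisk marks an adjusted p under 0.05 (limma, Benjamini-Hochberg) with a log2 fold change of at least 1 in size. Spleen has 6 genes up and Nfe2l2 down, Kupffer cells have 7 up, among them Hpx, which entered the fit through its Kupffer libraries alone, and lung has 6 down with Blvra, Fth1 and Nfe2l2 up.

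Population by population, spleen macrophages had 6 of the 9 members that rose, where 10.1% of all tested genes rose, and 1 that fell, where 6.2% fell. Kupffer cells had 6 that rose (9.45% of all genes) and 0 that fell (6.97%). Lung macrophages had 3 that rose (9.09%) and 6 that fell (8.84%). Monocytes had 0 that rose (6.34%) and 5 that fell (9.38%), and neutrophils had 0 that rose (15.0%) and 4 that fell (20.2%). The median log2 fold change over the 9 members was 2.32 in spleen, 1.64 in Kupffer cells, -1.70 in lung, -1.58 in monocytes and 0.08 in neutrophils, against medians of all tested genes of 0.07, 0.05, 0, -0.06 and -0.25. These comparisons share libraries, since each population is part of the others' averages, so high values in spleen and liver enter the low values of lung, monocytes and neutrophils.

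In experiment 1, microglia had 2 members that rose (10.8% of all genes) and 4 that fell (15.2%), and peritoneal macrophages had 2 that rose (7.05%) and 2 that fell (14.4%). Small intestine macrophages had 1 that rose (6.28%) and 0 that fell (1.82%), and large intestine macrophages had 2 that rose (7.13%) and 0 that fell (2.14%). The member medians were -0.996 in microglia, -0.56 in peritoneal macrophages, 0.32 in small intestine and 0.76 in large intestine, against -0.06, -0.18, 0.10 and 0.04 over all tested genes. The peritoneal count of 4 was 2 without peritoneal replicate 1, the small intestine count of 1 was 2 without peritoneal replicate 1, and the large intestine count of 2 was 1 without large intestine replicate 3. Lung's count of 9 was 6 without lung replicate 2, and monocytes' count, 6 with Hpx, was 4 without monocyte replicate 2. In spleen the count was 7 in every alternative, but not always of the same genes: against lung and Kupffer macrophages only, 5 rose and 2 fell when Hpx is counted, and Blvra was not called.

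Spleen red pulp macrophages were then set against Kupffer cells directly, since both clear red blood cells. Of the 9 members other than Hpx 3 were called, where 6.14% of all tested genes were. Hmox1 was higher in spleen, by 2.50 ± 0.36 (adjusted p = 2.74e-04), and so was Blvra, by 1.37 ± 0.39 (0.0440). Nfe2l2 was lower in spleen, at -2.78 ± 0.39 (2.24e-04), and Hpx, given without a test, was lower at -4.95 ± 0.84. The Blvra call ended in 18 alternatives, among them without Kupffer replicate 2 (0.86, adjusted p = 0.336) and without spleen replicate 1 (0.131) or 2 (0.264), and in further ones that leave out a peritoneal, small intestine, lung, monocyte or neutrophil library (0.0533 to 0.0627). The calls of Hmox1 and Nfe2l2 held in all of them. The differences of Slc40a1 (-0.19 ± 0.60), Cd163 (-0.33 ± 0.73), Blvrb (0.26 ± 0.39), Fth1 (0.00 ± 0.33), Slc11a1 (0.23 ± 0.30) and Tfrc (0.13 ± 1.02) were no larger than their standard errors, which does not show that these genes have equal levels.

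**Figure D4:**
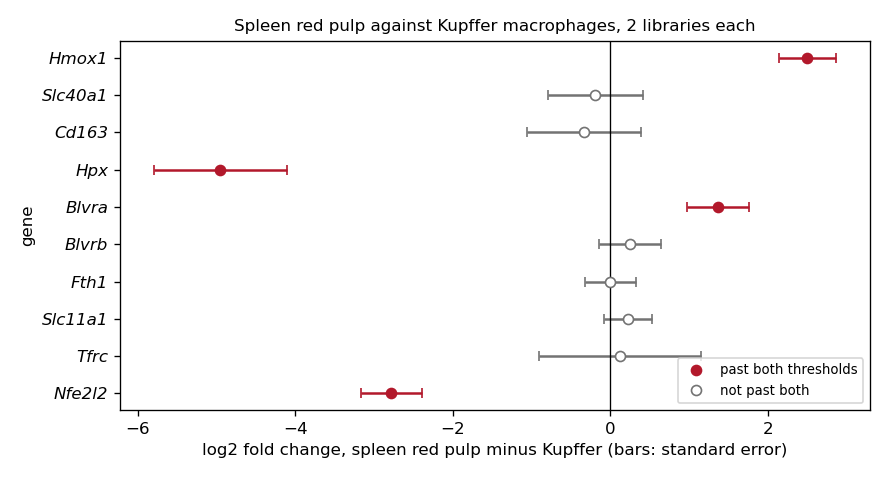
Log2 fold change of the 10 genes in spleen red pulp minus Kupffer macrophages, with standard errors, 2 libraries of each; filled red points passed both thresholds, which for Hpx is no test, since it entered through its Kupffer libraries alone. Hmox1 (2.50) and Blvra (1.37) lie to the right and Nfe2l2 (-2.78) and Hpx (-4.95) to the left of 0.

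Small intestine against large intestine macrophages gave 0 of 9 member calls by limma, where 1.18% of all tested genes were called; 0 members had an unadjusted p under 0.05, the lowest being 0.128, and no other tool was run. Monocytes against neutrophils gave 3 of 9, where 23.6% of all tested genes were called. Slc40a1 (-4.90 ± 0.60) and Fth1 (-1.43 ± 0.33, adjusted p = 3.29e-03) were lower in monocytes and Blvra was higher (1.61 ± 0.39, 5.17e-03). The Blvra call ended without neutrophil replicate 3 (0.0769), and that of Fth1 without monocyte replicate 1 (0.0558), with equal column totals (-0.53, adjusted p = 0.143) and with quantile normalization (-0.37, 0.376).

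Ordered by mean level, 10 of the 72 steps between neighbouring populations were called in the pair tests, none of them for Fth1 or Tfrc. The share of such steps over all tested genes was not computed, so this count describes the members only. Within experiment 2 the called steps were spleen over Kupffer and Kupffer over lung (2.46 ± 0.36) for Hmox1, spleen over neutrophils for Slc40a1, lung over Kupffer for Blvra, monocytes over lung for Slc11a1 and monocytes over spleen for Nfe2l2. The Blvra step, with Kupffer minus lung at -1.28 ± 0.39 (adjusted p = 0.0302), ended in 6 alternatives, among them those without Kupffer replicate 2 (0.306), lung replicate 1 (0.0621) or lung replicate 2 (0.196). Steps across experiments were small intestine over monocytes for Slc40a1 (2.68 ± 0.60), large intestine over neutrophils for Cd163 (2.05 ± 0.73), and Kupffer over peritoneal macrophages for Blvrb (1.21 ± 0.39) and Slc11a1 (1.31 ± 0.30).

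The members shared patterns in part. Over the 9 population means on the log2 scale, Pearson r was highest between Cd163 and Tfrc (0.90) and between Slc40a1 and Tfrc (0.88), Tfrc being near the detection limit in many libraries. It was 0.84 between Hmox1 and Blvrb, 0.80 between Cd163 and Blvrb and 0.70 between Slc40a1 and Cd163. Fth1 went with neither the exporter (r = 0.00 with Slc40a1) nor Slc11a1 (-0.40), and Blvra not with Slc40a1 (0.03). These values describe 9 points that share library preparation and experiment.

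Other genes of the pathway were taken from 5 lists of 66 heme and iron genes, of which 63 were in the table and 53 were tested; Flvcr2, Hamp2 and Steap3 would not have passed the filter without 1 population and are left out of the counts. In spleen 12 of the other 50 rose and 5 fell, in Kupffer cells 5 and 4, in lung 8 and 7, in monocytes 2 and 7 and in neutrophils 9 and 11, against the shares of all genes given above. In peritoneal macrophages 3 rose and 4 fell, in small intestine 2 and 1, in large intestine 3 and 1 and in microglia 3 and 10. Their median log2 fold change was 0.67 in spleen, against 0.07 over all tested genes, and between -0.40 and 0.19 in the other populations.

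Among regulators, Spic, the transcription factor needed for red pulp macrophages to develop, had 692 and 651 normalised reads in spleen and 152 and 167 in Kupffer cells, and 0 to 13.2 in the other 14 libraries. It rose in spleen by 5.74 ± 0.55 (adjusted p = 6.54e-07) and in Kupffer cells by 3.16 ± 0.55 (3.88e-04), the populations that led Hmox1. Bach1, which represses Hmox1 when heme is scarce, had means of 18.1 to 59.6 and was called in no population. Keap1, which holds NRF2 in check, had 245 and 259 in spleen, the highest libraries, but its difference of 0.95 ± 0.23 was short of the fold threshold. Of NRF2 target genes, G6pdx rose in neutrophils by 2.83 ± 0.24, while Prdx1 fell there by 3.28 ± 0.39, and Srxn1 was listed at 0 in both neutrophil libraries. In spleen, where Nfe2l2 was lowest, Gclc (1.45 ± 0.49), Prdx1 (1.17 ± 0.39) and Gclm (1.02 ± 0.32) rose while G6pdx fell by 1.36 ± 0.24 and Gsr fell by 2.19 ± 0.50; these spleen values were chosen after they were seen.

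Heme uptake and transport divided the populations in other ways. Flvcr2, a transporter of the heme exporter family, had 70.8 and 45.4 normalised reads in lung macrophages, against 0 to 4.16 in the 16 other libraries, and passed the filter through lung alone, so no test is given. Hp, the haptoglobin gene, had 5993 and 6605 in neutrophils and 1380.1 and 1472 in monocytes, and 2.82 and 2.78 in microglia. It rose in neutrophils by 4.75 ± 0.48 and fell in microglia by 4.83 ± 0.49. Hp in Kupffer cells was 314 in replicate 1 and 39.4 in replicate 2, the order of the hepatocyte sums. Lrp1, the receptor for hemopexin bound to heme, fell in neutrophils by 4.96 ± 0.20 (1.31e-11), with 22.0 and 17.6 there against 263 to 1062 in the 8 other libraries of experiment 2. Abcg2 rose in microglia by 2.52 ± 0.71 (0.0125), with 25.4 and 5.56. Hmox2, the constitutive heme oxygenase, had means of 81.2 to 297 and rose in microglia alone among the 9 populations, by 1.02 ± 0.29 (0.0138); in Kupffer cells, where its mean was highest, the difference was 0.995 ± 0.28, just short of the threshold.

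Of the heme synthesis genes, Alad rose in spleen by 2.49 ± 0.74 and Uros by 1.63 ± 0.53 on the log2 scale. Red cell precursors make these enzymes, and the erythroid markers Alas2 (235 and 188 in spleen, against 266 and 79.1 in neutrophils) and Klf1 (48.8 and 30.7, against 26.2 and 6.59) stood high in the same libraries; their part in both rises was not tested. Alad in neutrophils was 90.9 in replicate 1 and 2.20 in replicate 3, in the order of their erythroid sums. Alas1, the first enzyme of heme synthesis outside red cells, rose in neutrophils by 1.77 ± 0.31 (adjusted p = 1.54e-04). As for every gene outside the members, this value is given under the main scaling only. With equal column totals the median of all genes moved by -0.61 in neutrophils.

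In iron transport and storage, Ftl1, the ferritin light chain, had 6936 and 10789 normalised reads in lung and 486 and 477 in microglia. Like Fth1 it rose in lung (1.20 ± 0.27) and large intestine (1.55 ± 0.28) and fell in microglia, where it fell by 1.45 ± 0.28. It also rose in small intestine (1.09 ± 0.28), and in peritoneal macrophages it fell by 1.19 ± 0.28. Ftl1 has close copies too, and its values are uncertain in the same way. Trf, plasma transferrin, had 1730.2 and 1827 in spleen and 1302 and 1163 in lung, and rose in both, by 2.28 ± 0.26 and 1.61 ± 0.26. Cp, ceruloplasmin, which oxidises the iron that ferroportin exports, rose in Kupffer cells by 3.37 ± 0.58 within experiment 2. It had 18.7 and 14.1 there and 0 in all lung, monocyte and neutrophil libraries. In experiment 1 its mean was higher in peritoneal macrophages, at 45.8, and was 10.3 in microglia. Averaged over the populations of experiment 1 other than microglia, Cp was 59.3, so it was not particular to Kupffer cells. Slc25a37, the mitochondrial iron importer, rose in neutrophils by 2.62 ± 0.61, with 75.8 and 61.5. Slc11a2, relative of Slc11a1, was listed at 0 in both neutrophil libraries. Lcn2, which binds iron carriers of bacteria, had 40862 and 47696 in neutrophils and is a marker of them. Hfe, a regulator of hepcidin, had 184 and 168 in spleen and 211 and 299.8 in Kupffer cells. It fell in neutrophils by 3.42 ± 0.39 (adjusted p = 1.66e-06). In experiment 1 its mean was 165 in microglia and 61.5 in peritoneal macrophages, and 213 over the populations there other than peritoneal ones. Hamp2, a hepcidin gene, had 71.7 in Kupffer replicate 1, 5.55 in replicate 2 and 0 to 2.20 elsewhere, again in the order of the hepatocyte sums; it passed the filter through Kupffer cells alone, so no test is given. Aco1 and Cisd1, an iron regulatory protein and a mitochondrial iron-sulfur protein, fell in neutrophils by 2.49 ± 0.49 and 2.16 ± 0.35.

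**Figure D5:**
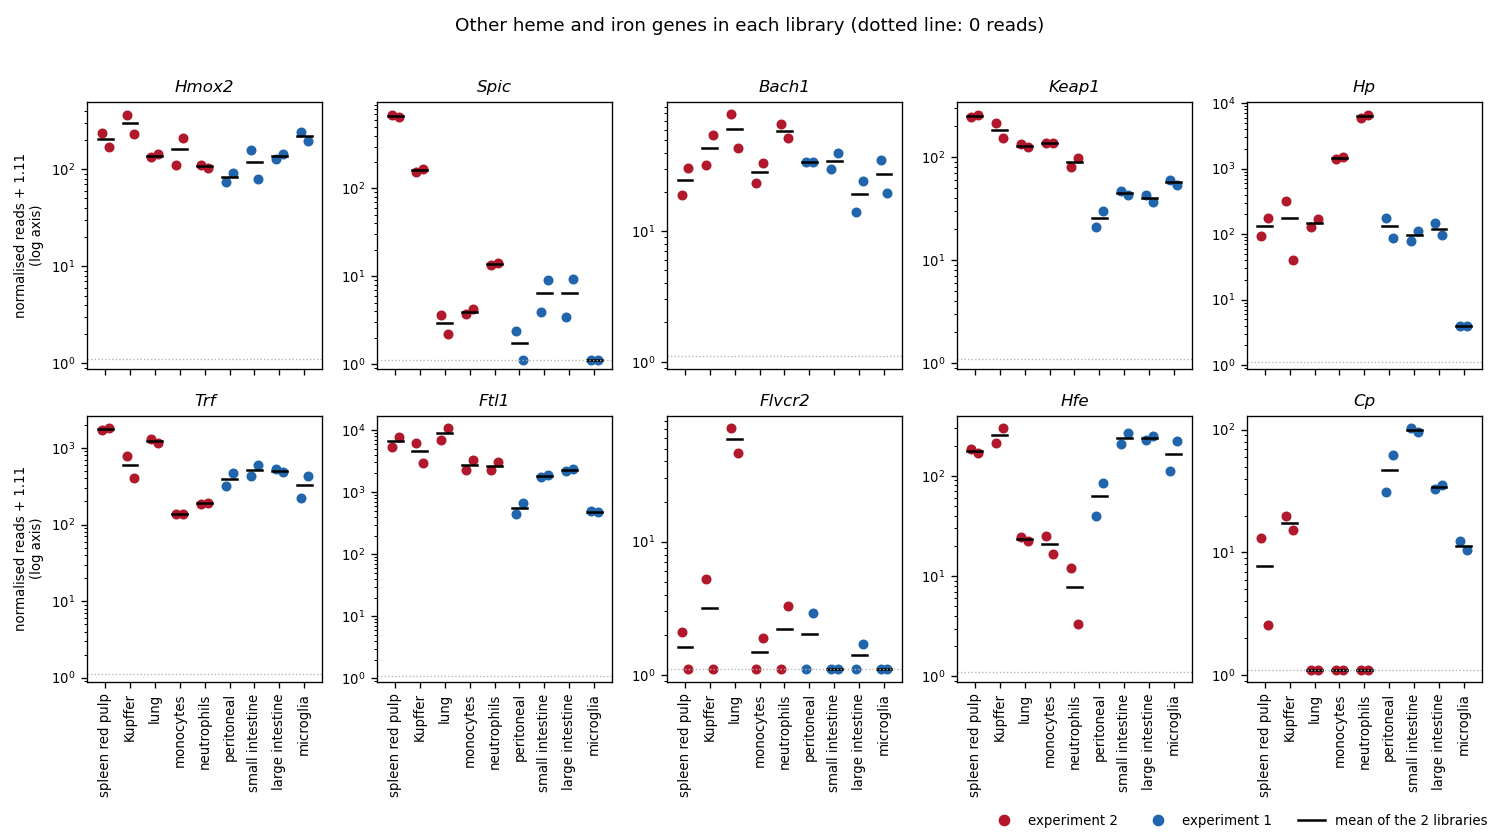
Normalised reads plus 1.11 (log axis) of 10 other heme and iron genes in each library, drawn as in the plot of the 10 members. Spic is highest in spleen and then Kupffer cells, Flvcr2 is seen in lung, Hp is highest in neutrophils, and Ftl1 is highest in lung and lowest in microglia and peritoneal macrophages.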

How the data were processed

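Messenger RNA of sorted cells was captured with oligo(dT), reverse transcribed with indexed primers, pooled and amplified by in vitro transcription, per the labels' protocols, and was aligned with TopHat to mm9, per the submitters' processing notes. How reads were counted and normalised, with which annotation and which TopHat version, was not given in the sources used here. What the authors deposited was 1 signal value per transcript and library, read counts divided by 1 factor per library, called normalised reads. Between 86.6% and 88.9% of values above 0 were whole multiples of 1 read (tolerance 0.01 read), so count methods were not used. Levels are not per length and were not compared between genes.

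Of 20814 transcripts, 20372 (97.9%) were matched by identifier to RefSeq symbols, and for the 2968 genes with several transcripts the one with the highest mean was used. Genes at 5.55 or more in at least 2 libraries, 11963 in all, were fitted with limma 3.58.1 (R 4.3.3) as log2(value + 1.11), with 1 factor of 9 populations, a mean-variance trend and 9 residual degrees of freedom; p-values were two-sided and Benjamini-Hochberg adjusted within each comparison. Leaving out 1 library leaves a lone sample that is assumed to vary like the other groups. Python 3.11.15, pandas 2.3.3 and matplotlib 3.10.9 made the tables and plots. The fit was tested on simulated data.

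The members and gene lists were chosen with earlier results of these data known. All 10 members are named, with up to 4 called genes of the largest change per heme or iron list, 7 further genes (Hmox2, Ftl1, Bach1, Spic, Trf, Hp and Keap1), and the genes most like each member among named genes whose highest mean was at least 50. One gene that this rule names is not reported here. Alternatives were another pseudocount (5.55), no filter, 2 other scalings, no trend, summed transcripts, other averages, separate fits, no fold threshold, a replicate block and each library left out.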

Additional observations from a re-analysis of the deposited data

How the results depend on the processing

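Hpx is counted among the members here, although it had to differ. Many alternatives leave out a library of a population outside the comparison, which does not change the difference itself. The tally that follows is therefore not one of independent checks. Of the 1969 recomputed values of called members, 1859 kept their direction and call, 108 kept their direction without the call and 2 turned: Hmox1 in peritoneal macrophages was -0.48 (adjusted p = 0.205) against all other 8 populations, and Hmox1 in Kupffer cells was -0.024 (0.987) against the macrophages of its experiment. Set against all other 8 populations, which mixes experiments, members called were 2 instead of 4 in peritoneal macrophages, 2 instead of 1 in small intestine, 3 instead of 6 in monocytes and 2 instead of 4 in neutrophils. The small intestine count was 2 without a fold threshold, and the large intestine count was 1 instead of 2 with quantile normalization. Leaving out 1 library at a time gave 2 to 5 calls in peritoneal macrophages, 1 to 2 in small intestine and 1 to 3 in large intestine. Causes of these changes in counts were not tested, and the shares of all genes called are not given for any alternative. Equal column totals moved the median of all genes by -0.61 in neutrophils and by -0.14 to 0.19 elsewhere, and quantile normalization by -0.16 to 0.22.

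Replicate numbers were shared by microglia, peritoneal macrophages, spleen and monocytes, and the 6 correlations of their deviations lay between -0.00864 and 0.00507. Within an experiment they were 0.0022 for microglia with peritoneal macrophages and 0.0043 for spleen with monocytes. The others cross experiments. Such values cannot show whether libraries of the same number share animals. With the numbers as a replicate block, members called were 0 instead of 1 in small intestine (Cd163, 3.04, adjusted p = 0.16), 3 instead of 4 in peritoneal macrophages and 4 instead of 6 in microglia, and pairwise differences were 73 instead of 80.

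With 2 libraries per population and single reads worth up to 2.20 normalised reads, Tfrc and most Hpx values rest on few reads, and a difference that was not called is not shown to be absent.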
